A study of Mus musculus with 8 samples.

Results

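The genes described here belong to 6 solute carrier families, Slc1, Slc3, Slc7, Slc36, Slc38 and Slc43. Most members of these families are amino acid transporters of the plasma membrane or the lysosomal membrane, or subunits of them. Members were the protein-coding genes of GENCODE M21 with a symbol of these families and a row in the deposited count table. The rule found 43 of 35275 genes, of which 42 encode transporters or their subunits and 1, Slc7a6os, is named only for its place on the strand opposite Slc7a6. RNA was sequenced from whole livers of 4 Pcx L-/- mice and 4 littermate controls, with 1 library per mouse, to ask how hepatic transcripts change when pyruvate carboxylase is lost. Pcx L-/- mice carry a Pcx allele with a floxed exon that is deleted by Cre recombinase under the Albumin promoter. The authors describe the deletion as hepatocyte-specific, and which other liver cells keep the gene was not measured here. Controls carry the same floxed allele without Cre (Pcx f/f) and are labelled WT. All 8 mice were 9-week-old males, labelled C57BL/6, with the Pcx allele from C57BL/6NTac-Pcx Tm1a stock, and were fasted for 24 h, and no fed liver was compared here, so each difference is one between genotypes in the fasted state.

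The liver takes up amino acids, alanine and glutamine above all, and turns their carbon into glucose and their nitrogen into urea. Exchangers of the Slc1 and Slc7 families trade one amino acid for another, carriers of the Slc38 family concentrate neutral amino acids with sodium, and light chains of the Slc7 family reach the membrane only when bound to a heavy chain of the Slc3 family. Several of these genes are known targets of Atf4, the transcription factor of the integrated stress response, which acts when amino acids are scarce or mitochondria are disturbed.

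The deleted gene checked the labels. Pcx ranged from 556 to 758 normalized counts in Pcx L-/- livers and from 14371 to 22059 in controls, so the knockout mean was 3.60% of the control mean. Libraries held 12016242 to 20023108 counted reads. A normalized count here is the read count divided by the library's effective size (TMM) and brought to a common library size. The library of Pcx L-/- mouse 1 stood apart in transcripts of red blood cells, as 4 hemoglobin chains (Hba-a1, Hba-a2, Hbb-bs and Hbb-bt) summed to 5293 FPKM against 295 to 1395 FPKM in the other 7 libraries. Its pericentral markers summed to 6203 FPKM, against 3434 to 3588 in the other Pcx L-/- libraries and 5488 to 7106 in controls. Its periportal markers summed to 6547 FPKM, against 4876 to 5150 and 4795 to 6996. Its stellate markers summed to 70.7 FPKM, against 136 to 159 and 72.7 to 157. Hepatocyte markers were abundant in every library but lower in each Pcx L-/- library (sums of 33754 to 43090 FPKM) than in each control (47583 to 52140 FPKM). Of 7 hepatocyte markers, Apoa1, Fabp1 and Serpina1a were lower, as were Cyp2f2, Gls2, Pck1 and Cdh1 of 8 periportal markers. Among pericentral markers Axin2 was higher and Cyp2e1 lower. Cd68 of macrophages was higher, Sox9 of cholangiocytes lower, and no endothelial, stellate, lymphocyte or hemoglobin marker passed the test described below. Of all genes in that test, 14.1% were higher and 13.5% lower. Values without Pcx L-/- mouse 1 are given where leaving it out changed the call of a member and for the members that passed. Mice numbered in the 800s were also examined on their own, since the labels number Pcx L-/- mouse 1 and control mice 1 and 2 in a lower series without saying what the numbers mean. The lower series holds a single Pcx L-/- mouse, too few for a value of their own.

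Of the 43 genes, 26 were expressed above the filter on low counts and were tested. The 17 others held at most 54 reads in all 8 libraries together and a mean of at most 0.108 FPKM in all. Of these, 11 had under 10 reads, and Slc7a12, Slc36a3 and Slc38a8 had none. Among the tested genes, 8 passed an adjusted p of 0.05 in edgeR's quasi-likelihood test, 4 higher and 4 lower in Pcx L-/- liver (30.8%). This share lay close to that of all 13168 genes tested, of which 27.6% passed, 14.1% higher and 13.5% lower. The size of the changes was uneven. All 4 higher genes were raised at least 2-fold (15.4% of the members tested, against 3.65% of all genes), and 1 of the 4 lower genes fell at least 2-fold (3.85%, against 3.58%). The median log2 fold change was 0.09 over the members and -0.01 over all genes. When libraries were scaled by total reads alone, these medians became 0.37 and 0.28, and small differences near 0 turned sign, as noted for each gene they touch.

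**Figure D1:**
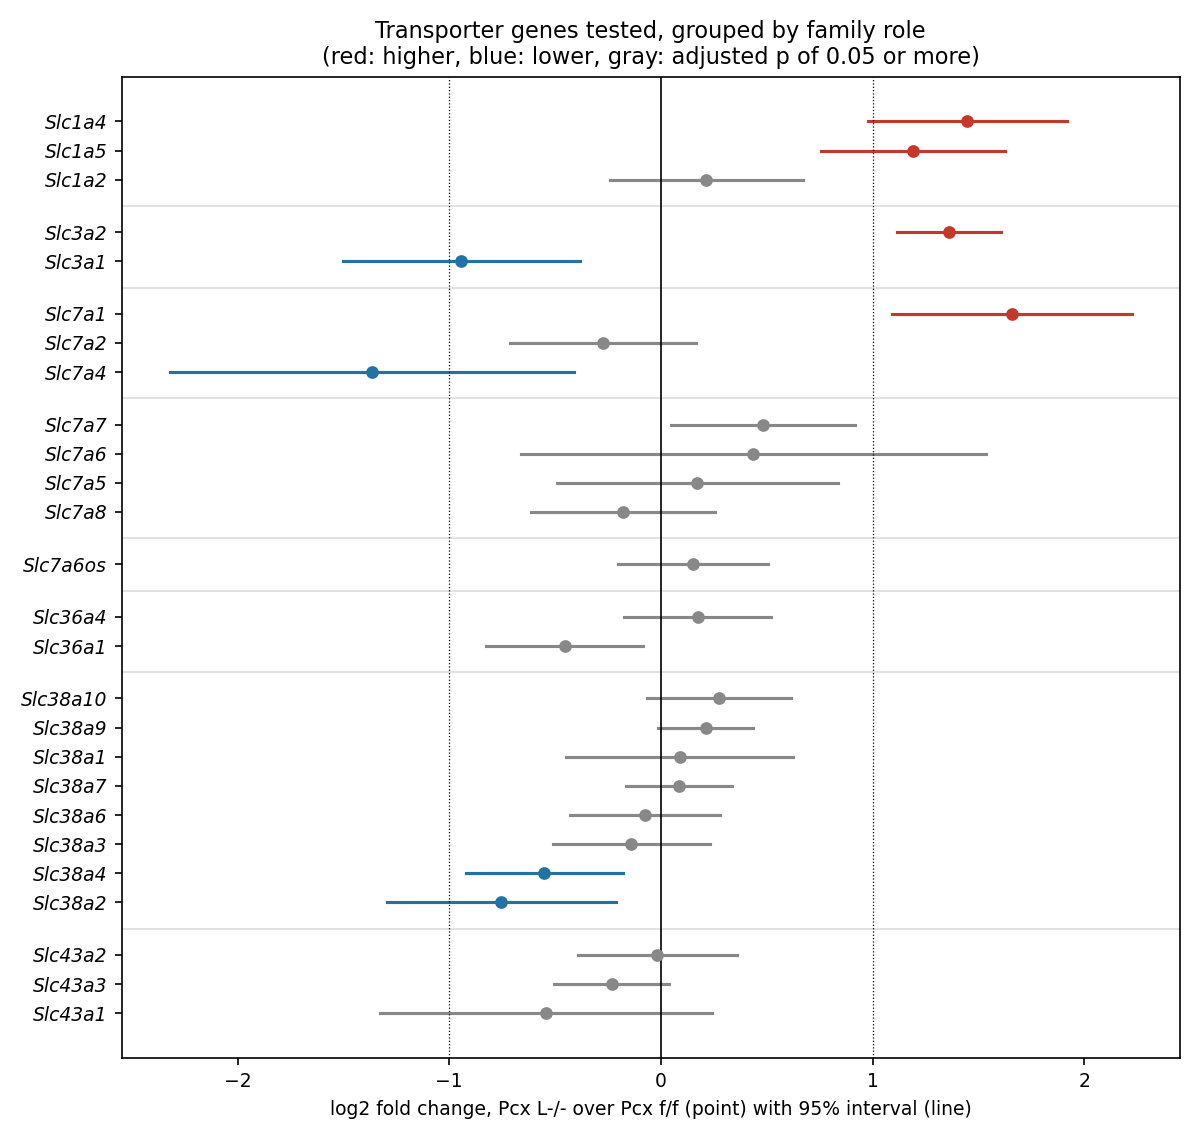
Log2 fold change (x axis) of each of the 26 tested genes (y axis, grouped by family role) in Pcx L-/- over control liver; points are edgeR estimates, lines are 95% intervals, and dotted lines mark a 2-fold change. The 4 red genes (Slc7a1, Slc1a4, Slc3a2 and Slc1a5) lie beyond the 2-fold line on the right, while 18 gray genes did not pass the test.

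The neutral amino acid exchangers of the Slc1 family rose. Slc1a4 (ENSMUSG00000020142, GRCm38 chr11:20302180-20332713, minus strand), which exchanges alanine, serine, cysteine and threonine, measured 162, 151, 96.4 and 148 normalized counts in Pcx L-/- mice 1 to 4 and 55.5, 56.3, 36.5 and 56.0 in control mice 1 to 4. The genotypes did not overlap, and mouse 3 was the lowest of each. The means were 139 ± 29.3 and 51.1 ± 9.71 (SD, n = 4), a log2 fold change of 1.45 (SE 0.21, edgeR adjusted p = 0.0013). Slc1a5 (ENSMUSG00000001918, chr7:16781340-16798274, plus strand), a glutamine exchanger of many growing cells, measured 91.5, 142, 141 and 118 in Pcx L-/- mice and 54.6, 66.1, 45.1 and 49.2 in controls. All Pcx L-/- values lay above all controls, with mouse 1 the lowest of its group. The log2 fold change was 1.19 (SE 0.20, 95% interval 0.76 to 1.63, edgeR adjusted p = 0.00216). Slc1a2 (ENSMUSG00000005089), the sodium-dependent glutamate carrier of hepatocytes around the central vein, did not pass the test, with 2511 to 3775 normalized counts in Pcx L-/- and 1696 to 3381 in control livers and a log2 fold change of 0.21 (95% interval -0.24 to 0.67, edgeR adjusted p = 0.48). The 4 other Slc1 genes were too low to test. Slc1a3, a glutamate carrier best known from astrocytes, was the highest of them, with 36 reads in Pcx L-/- and 18 in control libraries (exact permutation p = 0.229, two-sided).

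The heavy chains moved in opposite directions. Slc3a2 (ENSMUSG00000010095, chr19:8706882-8723369, minus strand) encodes the heavy chain that brings leucine, glutamine, cystine and arginine exchangers to the cell surface. It measured 1503, 1811, 1904 and 1982 normalized counts in Pcx L-/- mice 1 to 4 and 667, 678, 753 and 709 in controls. The lowest Pcx L-/- value was well above the highest control. The means of 1800 ± 210 and 702 ± 38.6 (SD, n = 4) differed by 1.36 on the log2 scale (SE 0.11, 95% interval 1.11 to 1.60, edgeR adjusted p = 1.22e-04), the smallest adjusted p among the members.

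Slc3a1 (ENSMUSG00000024131, chr17:85028376-85064236, plus strand) is the other heavy chain, the partner of Slc7a9 in cystine and dibasic amino acid transport and a gene of cystinuria. It measured 200, 150, 110 and 81.4 normalized counts in Pcx L-/- mice 1 to 4 and 246, 187, 299 and 312 in controls. Only Pcx L-/- mouse 1 reached the range of the controls. The gene fell by 0.94 on the log2 scale (SE 0.26, edgeR adjusted p = 0.0192). Its call was lost without Pcx L-/- mouse 3, Pcx L-/- mouse 4 or control mouse 3, with edgeR adjusted p values of 0.0504 to 0.0591. The log2 fold changes in these fits were -0.87 to -0.77. Without Pcx L-/- mouse 1 its log2 fold change was -1.19 (edgeR adjusted p = 0.00238). The gene shares 767 bases with Prepl on the opposite strand, which had 3744 reads to the 1536 of Slc3a1 and a log2 fold change of -0.40, and as the use of strand in counting is not known, reads of the shared stretch cannot be assigned. Slc7a9, its light chain, had 8 reads in all.

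The light chains that bind Slc3a2 did not pass the test. Slc7a5 (ENSMUSG00000040010, chr8:121881150-121907694, minus strand), the leucine carrier, measured 60.4, 95.4, 56.0 and 79.4 normalized counts in Pcx L-/- mice and 91.0, 30.3, 65.6 and 71.3 in controls. The groups overlapped throughout, and the log2 fold change of 0.17 had a 95% interval of -0.49 to 0.84 (edgeR adjusted p = 0.714). Without control mouse 2, which had the lowest Slc7a5 value, the log2 fold change was -0.07. Slc7a7, which exports arginine and lysine in exchange for neutral amino acids, ranged from 51.1 to 66.5 in Pcx L-/- and from 32.2 to 47.5 in control livers without overlap, but its log2 fold change of 0.48 (95% interval 0.05 to 0.92) did not pass (edgeR adjusted p = 0.0929). With total reads as the scale it became 0.77 (edgeR adjusted p = 0.0193). Slc7a7 shares 232 bases with Oxa1l on the opposite strand, which had 7312 reads to its 410 and a log2 fold change of -0.01. Slc7a8, a carrier of large and small neutral amino acids, had a log2 fold change of -0.18, which became 0.12 when libraries were scaled by total reads. Slc7a6, another arginine exchanger, had 0.44 on 104 reads in all, and Slc7a6os, no transporter itself, had 0.15. Slc7a11, the cystine carrier and a known Atf4 target, was barely detected, with 1, 5, 1 and 5 reads in Pcx L-/- mice 1 to 4 and 7, 1, 1 and 0 in controls (exact permutation p = 0.657, two-sided). A change in Slc7a11 was not detectable at this depth.

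Relative to its light chains, the heavy chain was thus higher in Pcx L-/- than in control livers. The ratio of Slc3a2 FPKM to the summed FPKM of 6 light chains (Slc7a5, Slc7a6, Slc7a7, Slc7a8, Slc7a10 and Slc7a11) does not depend on how libraries are scaled to each other. It was 8.36, 7.38, 8.77 and 8.52 in Pcx L-/- mice 1 to 4 and 2.72, 4.03, 4.40 and 3.57 in controls. The genotypes did not overlap, and control mouse 1, with the highest light chain sum of its group, had the lowest ratio. The means were 8.26 ± 0.608 and 3.68 ± 0.726 (SD, n = 4), a log2 difference of 1.19 (exact permutation p = 0.0286, two-sided, the smallest that 4 against 4 mice allow). The light chain sum itself was 5.10 ± 1.02 FPKM in Pcx L-/- and 3.72 ± 0.717 FPKM in control livers, with overlap. The rise of Slc3a2 given above enters the ratio, so the p-value of the ratio is no separate evidence.

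**Figure D2:**
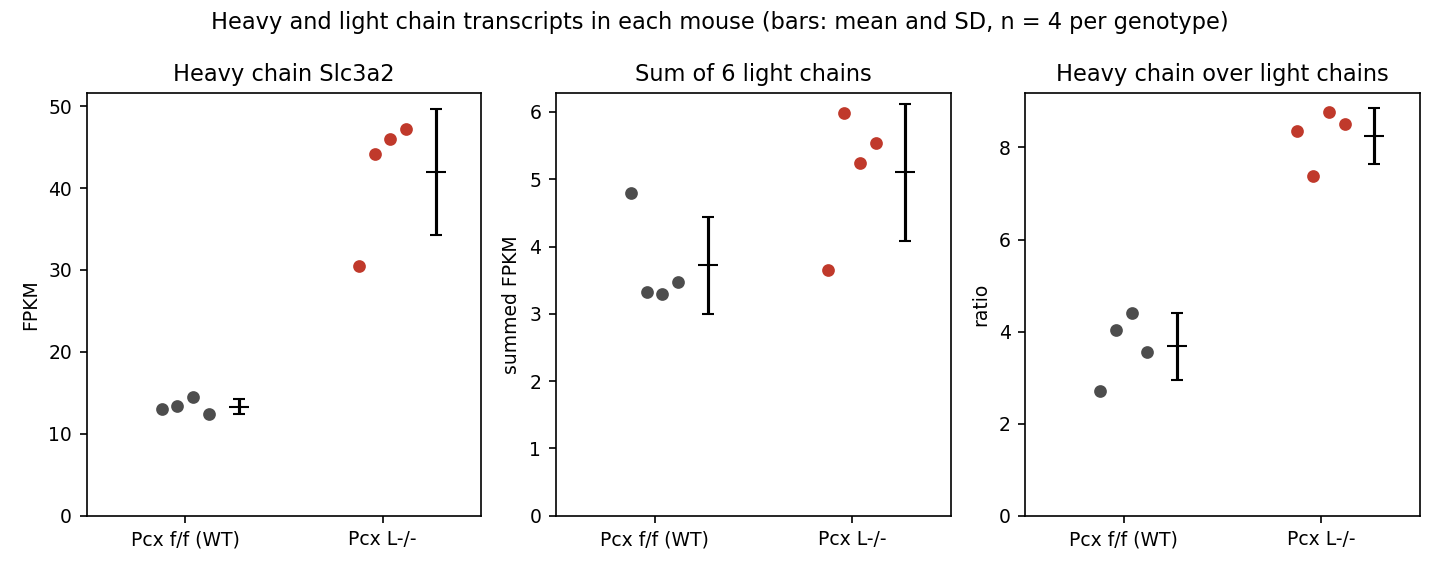
FPKM of the heavy chain Slc3a2 (left), summed FPKM of 6 light chains (middle) and their ratio (right) in each mouse, with mean and SD of 4 mice per genotype. Control livers sit at ratios of 2.72 to 4.40 and Pcx L-/- livers at 7.38 to 8.77, while the light chain sums overlap.

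Among the cationic amino acid carriers, the widely expressed form rose and the liver form did not pass the test. Slc7a1 (ENSMUSG00000041313, chr5:148327410-148399904, minus strand), the high-affinity arginine and lysine carrier of most cells outside the liver, measured 83.0, 125, 131 and 91.3 normalized counts in Pcx L-/- mice and 50.1, 24.9, 27.9 and 32.2 in controls. The genotypes did not overlap, and control mouse 1 was the highest of its group. Slc7a1 showed the largest log2 fold change of the members tested, 1.66 (SE 0.26, 95% interval 1.09 to 2.22, edgeR adjusted p = 0.00153), and 1.93 without control mouse 1. Slc7a2 (ENSMUSG00000031596, chr8:40862396-40922308, plus strand), the low-affinity arginine carrier of liver, ranged from 30300 to 38478 in Pcx L-/- and from 29418 to 55363 in control livers. Its log2 fold change of -0.28 (95% interval -0.71 to 0.16, edgeR adjusted p = 0.339) became 0.02 when libraries were scaled by total reads. Whether both genes differed in their response was not tested.

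Slc7a4 (ENSMUSG00000022756, chr16:17572018-17583214, minus strand), a relative of these carriers without an established substrate, measured 6.61, 4.58, 9.33 and 3.97 normalized counts in Pcx L-/- mice and 18.2, 18.4, 20.4 and 5.09 in controls. Control mouse 4 lay among the Pcx L-/- values and the other 3 controls well above them. It fell by 1.37 on the log2 scale (SE 0.43, edgeR adjusted p = 0.0372), on only 88 reads in all 8 libraries. The call was lost without any of Pcx L-/- mouse 2 or 4 or control mouse 1, 2 or 3, with adjusted p values of 0.0798 to 0.11. Without Pcx L-/- mouse 1 the log2 fold change was -1.40 (edgeR adjusted p = 0.0492).

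**Figure D3:**
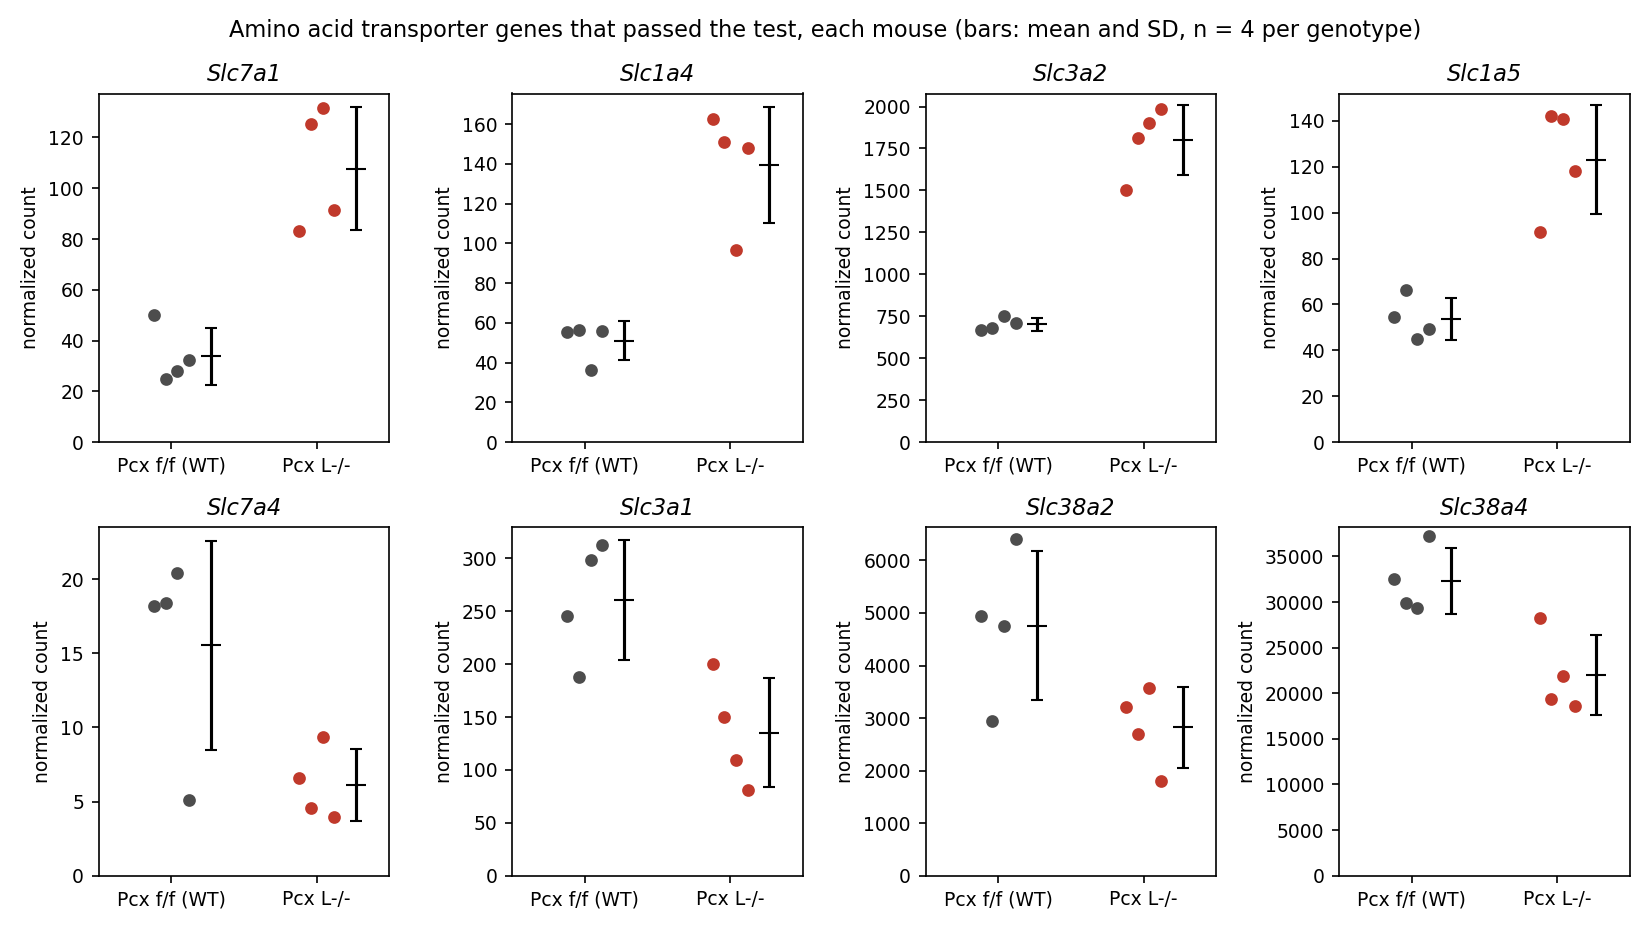
Normalized counts (y axis, from 0) of the 8 genes that passed the test in each control and Pcx L-/- mouse, with mean and SD of 4 mice per genotype. The upper 4 genes do not overlap between genotypes; of the lower 4, only Slc38a4 does not.

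The sodium-coupled carriers of the Slc38 family held both of the most abundant neutral amino acid carriers of these livers. Of the 8 members tested, 2 fell, and of all genes tested, 13.5% were lower. Slc38a4 (ENSMUSG00000022464, chr15:96994820-97055956, minus strand), a liver-enriched carrier of alanine and other neutral amino acids, measured 28270, 19363, 21842 and 18626 normalized counts in Pcx L-/- mice and 32556, 29909, 29334 and 37242 in controls. Every Pcx L-/- value lay below every control, with mouse 1 the closest to them. It fell by 0.55 on the log2 scale (SE 0.17, 95% interval -0.92 to -0.18, edgeR adjusted p = 0.0323). Slc38a2 (ENSMUSG00000022462, chr15:96687392-96699730, minus strand), the alanine carrier that amino acid starvation induces in cultured cells, measured 3214, 2695, 3566 and 1808 in Pcx L-/- mice and 4934, 2941, 4751 and 6407 in controls. Control mouse 2 lay below Pcx L-/- mice 1 and 3, so the groups overlapped. It fell by 0.75 on the log2 scale (SE 0.25, 95% interval -1.30 to -0.21, edgeR adjusted p = 0.0419) and is, like the risers, known as an Atf4 target.

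Both calls in the Slc38 family lay near the threshold, and were lost with another scale or with fewer mice. With total reads as the scale, Slc38a4 had a log2 fold change of -0.27 (edgeR adjusted p = 0.0913) and Slc38a2 of -0.46 (edgeR adjusted p = 0.119). Leaving out Pcx L-/- mouse 2, 3 or 4 or control mouse 1, 3 or 4 cost Slc38a4 its call, with adjusted p values of 0.0552 to 0.117. The same held for Slc38a2 without Pcx L-/- mouse 2 or 4 or control mouse 1, 3 or 4, with 0.0843 to 0.115. The direction stayed the same in all fits that lacked 1 mouse. Slc38a4 ran from -0.69 to -0.48 and Slc38a2 from -0.93 to -0.58 on the log2 scale. Without control mouse 3 both lost the call at -0.60 and -0.76, although the change was no smaller than over all mice (-0.55 and -0.75). Without Pcx L-/- mouse 1, the values were -0.69 (edgeR adjusted p = 0.00155) and -0.82 (edgeR adjusted p = 0.0328). Transcripts of hepatocyte markers moved the same way, as 3 of 7 were lower and none higher, with the sums given above. Their median was -0.63, against -0.01 for all genes tested, of which 13.5% were lower. The part of these markers in the result was not tested, and in bulk liver, fewer cells of a type and less RNA per cell cannot be told apart.

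Slc38a3 (ENSMUSG00000010064, chr9:107650634-107669530, minus strand), the carrier that moves glutamine, histidine and asparagine in hepatocytes, measured 30443, 20162, 22351 and 23822 normalized counts in Pcx L-/- mice and 29005, 22456, 25010 and 30257 in controls. The groups overlapped fully, with Pcx L-/- mouse 1 the highest of all 8. The log2 fold change was -0.14 (95% interval -0.51 to 0.23, edgeR adjusted p = 0.575), 0.13 with total reads as the scale and -0.27 without Pcx L-/- mouse 1 (edgeR adjusted p = 0.139). Slc38a1, the third neighbor of Slc38a2 and Slc38a4 on chromosome 15, ranged from 36.8 to 49.6 in Pcx L-/- and from 31.2 to 56.4 in control livers, with a log2 fold change of 0.09 (edgeR adjusted p = 0.822). Slc38a10 and Slc38a6, whose transport roles are less settled, had log2 fold changes of 0.27 and -0.07. Slc38a10 passed without control mouse 4, the highest of its group (log2 fold change 0.45, edgeR adjusted p = 0.011) and with total reads as the scale (0.58, edgeR adjusted p = 0.00956). Slc38a11 was too low for edgeR and had 12 reads in Pcx L-/- and 25 in control libraries (exact permutation p = 0.0571, two-sided, among 6 such tests of low members). The remaining tests (Slc1a7, Slc7a3 and Slc7a15) gave exact p values from 0.571 to 1.

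The transporters of lysosomes and the related Slc36 carriers did not pass the test over all mice. Slc38a9 (ENSMUSG00000047789, chr13:112660751-112738749, plus strand), the arginine-sensing carrier that signals to mTORC1, measured 276, 324, 282 and 279 normalized counts in Pcx L-/- mice and 248, 250, 246 and 260 in controls. The genotypes did not overlap, but the distance was small and mouse 2 of the Pcx L-/- group stood above its group. The log2 fold change of 0.21 (95% interval -0.01 to 0.44, edgeR adjusted p = 0.153) became 0.50 with total reads as the scale (edgeR adjusted p = 0.014). Slc36a1 (ENSMUSG00000020261, chr11:55204350-55236330, plus strand), a proton-coupled exporter of small neutral amino acids, measured 743.5, 483.2, 566.9 and 414.8 in Pcx L-/- mice and 889.4, 691.3, 700.8 and 741.7 in controls. Pcx L-/- mouse 1 alone lay among the controls. The log2 fold change was -0.45 (95% interval -0.82 to -0.08, edgeR adjusted p = 0.0677), and -0.63 without Pcx L-/- mouse 1 (edgeR adjusted p = 0.0046). Slc36a4 had a log2 fold change of 0.17, and 0.50 among mice numbered in the 800s (edgeR adjusted p = 0.0347). Slc38a7, a lysosomal glutamine carrier, had 0.08, which became 0.37 with total reads as the scale (edgeR adjusted p = 0.0181) and -0.07 among mice numbered in the 800s.

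The Slc43 family, sodium-independent carriers, held 1 gene that turned on a single mouse. Slc43a1 (ENSMUSG00000027075, chr2:84838850-84863594, plus strand), a carrier of branched-chain amino acids and phenylalanine, measured 347, 90.8, 141 and 127 normalized counts in Pcx L-/- mice and 256, 285, 173 and 314 in controls. Pcx L-/- mouse 1 was the highest of all 8 and the other 3 were lower than every control. Over all mice the log2 fold change was -0.54 (95% interval -1.33 to 0.24, edgeR adjusted p = 0.291). Without mouse 1 it was -1.10 (edgeR adjusted p = 0.00274). That library differed from the other Pcx L-/- libraries in hemoglobin, pericentral, periportal and stellate markers. The part of those transcripts in the value was not tested. Slc43a2, another leucine carrier, and Slc43a3, which carries purine bases rather than amino acids, had log2 fold changes of -0.02 and -0.23, and both turned positive with total reads as the scale.

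Genotypes did not overlap in 7 of the 26 tested genes, a share close to the 27.6% of all genes tested. In 6 of the 7 members Pcx L-/- was higher (Slc1a4, Slc1a5, Slc3a2, Slc7a1, Slc7a7 and Slc38a9), or 23.1% against 15.1% of all genes tested. Slc38a4 was the 1 gene with every Pcx L-/- value lower, or 3.85% against 12.5% of all genes.

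**Figure D4:**
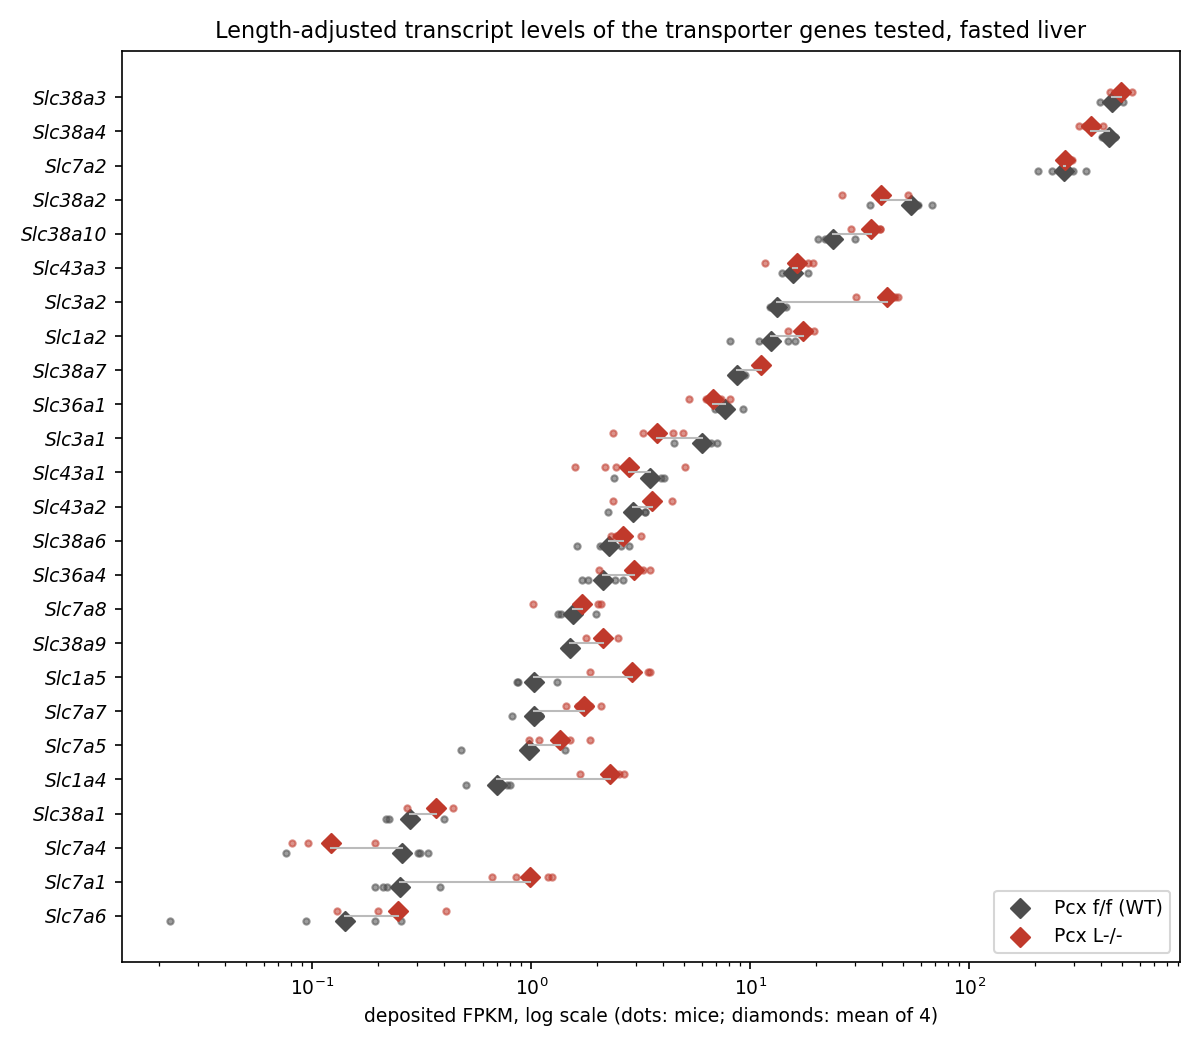
Deposited FPKM (x axis, log scale) of the 25 tested transporter genes (y axis, ordered by the control mean), with dots for mice and diamonds for the mean of 4. Slc38a3, Slc38a4 and Slc7a2 stand apart on the right in both genotypes, and Slc3a2 moves from 13.3 to 41.9 FPKM.

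Levels of different genes can be compared only per length, for which the deposited FPKM was used. FPKM is scaled by total reads, so its differences between genotypes follow that scale. Slc38a3, Slc38a4 and Slc7a2 were the highest in both genotypes, at 451 ± 47.8, 436 ± 27.9 and 272 ± 60.9 FPKM in controls and 495 ± 47.2, 361 ± 41.6 and 275 ± 14.7 FPKM in Pcx L-/- livers (SD, n = 4). Slc38a3 and Slc38a4 did not differ beyond their spread in controls, whereas Slc7a2 was below both. Together the 3 genes made up 83.5% to 88.2% of the summed FPKM of the 42 transporter genes in each liver. Slc38a2 came next in controls, at 54.3 ± 13.8 FPKM, and Slc3a2 moved from rank 7 to rank 4, from 13.3 ± 0.905 to 41.9 ± 7.74 FPKM. The other risers began low and stayed low. Slc1a4 went from 0.694 ± 0.133 to 2.30 ± 0.433 FPKM, Slc1a5 from 1.03 ± 0.209 to 2.89 ± 0.745 FPKM and Slc7a1 from 0.252 ± 0.0881 to 0.988 ± 0.28 FPKM. The summed FPKM of all transporter genes overlapped between genotypes, at 1244 to 1417 in Pcx L-/- and 1160 to 1455 in control livers.

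The 4 risers are all among the transporters that Atf4 is known to induce. A list of 9 such genes, written from general knowledge, had 7 tested members, of which 4 rose (Slc7a1, Slc1a4, Slc3a2 and Slc1a5), 1 fell (Slc38a2) and 2 did not pass, Slc7a5 and the glycine carrier Slc6a9 (log2 fold change -0.16). The share that passed was 71.4%, against 27.6% of all genes tested, of which 14.1% were higher and 13.5% lower. The median of the list was 1.19, against -0.01 for all genes tested. As the list was written with earlier results of these data known, its count is no independent evidence of a direction.

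Atf4 pairs with C/EBP factors on a composite DNA element, written here as TGATGNAA and searched on both strands from 250 bases before to 50 after each RefSeq transcript start (GRCm38.p6). The element stood in the windows of 3 of the 32 members that had one (9.38%), against 4.51% of all 27025 genes with a window. Among the risers with a window it was in that of Slc1a4 but not in those of Slc3a2 or Slc7a1, and Slc1a5 had no window. It was in none of the windows of Slc3a1, Slc38a2 and Slc38a4, the 3 lower genes with one. The stretches below run from 90 bases before to 10 bases after the start, with the element in capitals. They show the 3 members with it in a window, then Slc3a2 and Slc38a2, list members that moved in opposite directions and whose windows lack it. The only Slc3a2 window lies inside the annotated gene, whose 5′ end is at 8723369. Slc1a4 lies at chr11:20332704-20332803, Slc7a11 at chr3:50443604-50443703, Slc7a7 at chr14:54417935-54418034, Slc3a2 at chr19:8713888-8713987 and Slc38a2 at chr15:96699719-96699818, all on the minus strand and printed 5′ to 3′.
Slc1a4: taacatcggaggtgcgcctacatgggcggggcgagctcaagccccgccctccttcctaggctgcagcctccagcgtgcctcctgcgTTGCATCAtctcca
Slc7a11: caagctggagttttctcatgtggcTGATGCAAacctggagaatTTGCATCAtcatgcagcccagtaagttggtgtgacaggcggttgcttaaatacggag
Slc7a7: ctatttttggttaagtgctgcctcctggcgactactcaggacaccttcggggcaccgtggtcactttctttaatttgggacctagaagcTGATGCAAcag
Slc3a2: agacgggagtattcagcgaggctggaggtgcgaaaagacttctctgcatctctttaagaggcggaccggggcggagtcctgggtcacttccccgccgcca
Slc38a2: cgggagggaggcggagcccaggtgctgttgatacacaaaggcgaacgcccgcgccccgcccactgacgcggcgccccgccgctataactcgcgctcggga
In Slc1a4 the element spans the start itself, from base -4 to base 4, on the complementary strand. Slc7a11 holds it at bases -66 to -59 and again, complementary, at -47 to -40, yet had 21 reads in all livers. In Slc7a7 it lies at bases -1 to 7 of 1 of 5 windows, the same copy falls at -243 from another start, and a further copy begins at -141. A match says only that these letters are present. A window without a match says nothing about the rest of the gene, which was not searched.

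The other gene lists were written to set the members beside their pathway. Of 20 further amino acid transporters of plasma membrane and lysosome found in the table, 12 were tested, 1 was higher and 4 were lower, or 41.7% against 27.6% of all genes. Mfsd12, needed for the import of cysteine into lysosomes, rose by 0.55 on the log2 scale (SE 0.17, edgeR adjusted p = 0.0354). The taurine carrier Slc6a6 fell by 0.97 (SE 0.19, edgeR adjusted p = 0.00474), the lysosomal sialic acid exporter Slc17a5 fell by 0.67 (SE 0.12, edgeR adjusted p = 0.00258) and the aromatic amino acid carrier Slc16a10 fell by 0.60 (SE 0.19, edgeR adjusted p = 0.0369). Slc6a6 and Slc17a5 passed under all 16 other settings, whereas Mfsd12 did not pass under 8 of them (edgeR adjusted p up to 0.116) nor Slc16a10 under 5 (up to 0.146).

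Of 34 tested genes of amino acid sensing upstream of mTORC1, 6 were higher and 4 lower, with a median of 0.03. This share of 29.4% lay close to the 27.6% of all genes. The highest were Rragd, a Rag GTPase, with a log2 fold change of 0.96, and the lysosomal Ragulator subunits Lamtor3 and Lamtor1, with 0.66 and 0.53. The lowest were Castor2, a relative of the arginine sensor Castor1, with -0.78, the leucine-sensing relative Sesn3 with -0.72 and the folliculin partner Fnip2 with -0.70. Lamtor1, Lamtor3 and Fnip2 passed under each of the 16 other settings, whereas Rragd and Sesn3 did not pass under 7 and Castor2 under 5.

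Of 12 enzymes that make or use glutamine, asparagine and related amino acids, 2 rose and 4 fell, with a median of -0.28. The share of 50% stands against 27.6% of all genes. Asns, which makes asparagine from aspartate and glutamine and is a classic Atf4 target, rose from 86.7 ± 67.4 to 454 ± 66.3 normalized counts (SD, n = 4), a log2 fold change of 2.46 (SE 0.37, edgeR adjusted p = 0.00132). Asrgl1, an asparaginase, rose by 0.66. The asparaginase Aspg fell by 0.91, arginase Arg1 by 0.83 and glutamate dehydrogenase Glud1 by 0.78 on the log2 scale. Aspg and Glud1 passed under all 16 other settings. Arg1 did not pass under 7 of them (edgeR adjusted p up to 0.116), and Pcx L-/- mouse 1, at 39566 normalized counts, lay within the controls (38591 to 45529) while the other 3 lay at 15675 to 20454. Without that mouse Arg1 had a log2 fold change of -1.20 (edgeR adjusted p = 6.19e-05).

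The call of the 4 risers held under all 16 other settings, whereas each of the 4 lower genes lost its call under some. Over these settings the log2 fold change of Slc3a2 ran from 1.30 to 1.65 and that of Slc7a1 from 1.53 to 1.96. Without Pcx L-/- mouse 1, Slc7a1, Slc3a2, Slc1a4 and Slc1a5 had 1.76, 1.43, 1.37 and 1.31. Among mice numbered in the 800s, Slc7a1, Slc1a4, Slc1a5 and Slc3a2 had 1.96, 1.54, 1.51 and 1.38, and the lower genes Slc3a1, Slc7a4, Slc38a2 and Slc38a4 had -1.41, -1.17, -1.05 and -0.74. Slc7a4 did not pass there (edgeR adjusted p = 0.2). The count of lower genes rose to 6 without Pcx L-/- mouse 1 and became 0 without Pcx L-/- mouse 4 or control mouse 3 in edgeR, where 4 and 5 genes were lower at an unadjusted p of 0.05. It was 1 without Pcx L-/- mouse 2 or control mouse 1, 2 without Pcx L-/- mouse 3 or control mouse 4, and 1 (Slc3a1) with total reads as the scale, where 8 genes were higher. The share of all genes that passed under each setting was not set beside these counts, so they do not show a trait of the members.

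**Figure D5:**
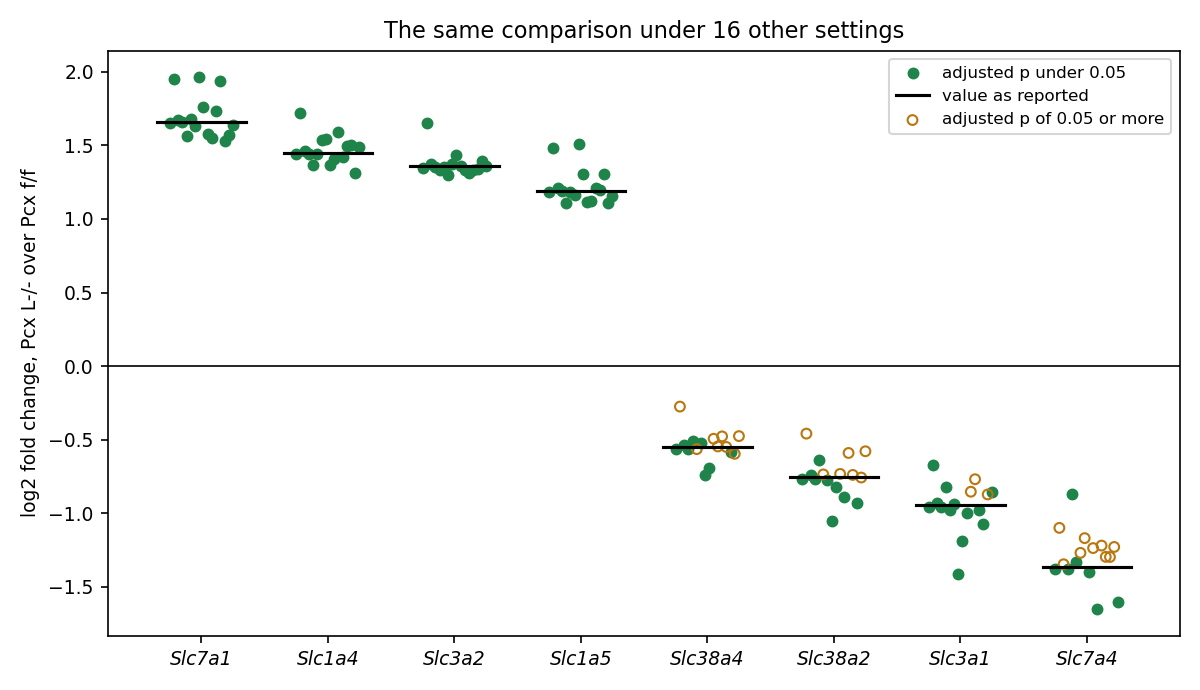
Log2 fold change (y axis) of the 8 genes that passed the test (x axis) under 16 other settings of normalization, filter, tool, covariate or left-out mouse; black bars are the values as reported, filled points passed an adjusted p of 0.05 and open points did not. The 4 risers stay filled between 1.11 and 1.96, and the 4 lower genes each have open points.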

How the data were processed

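Total RNA from flash-frozen livers of 8 mice was sequenced, 1 library per mouse, 4 per genotype. The authors deposited raw read counts per Ensembl gene. They also deposited FPKM, and 100% of its 142384 values above 0 equal the count over a fixed gene length and the read total, to a relative tolerance of 0.0001. The submitters' processing notes name STAR 2.5, HTSeq 0.6.1, DESeq2 and mm10. For annotation release and strand use in counting, nothing is given in the sources used here, so reads shared by overlapping genes may be counted for either.

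Groups came from the sample labels, and symbols and positions from GENCODE M21 (GRCm38), which matched 34490 of 35275 identifiers. Counts were tested with edgeR 4.0.16 (R 4.3.3), using TMM factors, filterByExpr (minimum count 10, minimum total 15), the quasi-likelihood F test on genotype without covariates, and Benjamini-Hochberg values over 13168 genes. Standard errors are approximate, taken as the log2 fold change over the root of F. The biological coefficient of variation was 0.181 on 6 residual degrees of freedom. P-values measure the spread between mice. Members under the filter with at least 10 reads in all were compared by an exact two-sided permutation test on log2(normalized count + 1). The fitting was tested on simulated data.

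Every member was accounted for. Those past the threshold, and a fixed list of liver and stress-linked transporters, were described by mouse; from each gene list, at most the 3 highest and 3 lowest genes past the threshold were named. Cell markers that passed were named as well, and 1 marker is not reported here. Members and lists were chosen with earlier results of these data known. Alternatives were DESeq2 1.42.0 size factors, total reads as the scale, no filter, DESeq2's Wald test, apeglm 1.24.0 shrinkage, the replicate number as a block, the mouse number series as a covariate, mice numbered in the 800s alone, and each mouse left out in turn. Promoter sequences are from RefSeq (GRCm38.p6); 11 members had no window.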

Additional observations from a re-analysis of the deposited data

Results flagged for a closer look

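In 54 groups of 4 mice (26 genes and the ratio of heavy to light chains, in each genotype), the lowest or highest mouse was set against the others by the gap to its nearest neighbor over the whole range. The gap passed Dixon's 95% critical value in 7 groups, and chance alone gives about 1 in 20. Slc1a4 measured 36.5 normalized counts in control mouse 3 and 55.5 to 56.3 in the other controls. Slc7a4 measured 5.09 in control mouse 4 and 18.2 to 20.4 in the others. Slc7a6os measured 199 in control mouse 4 and 326 to 349 in the others. Slc38a7 measured 654 in Pcx L-/- mouse 1 against 551 to 556, and 645 in control mouse 4 against 502 to 521. Slc38a9 measured 324 in Pcx L-/- mouse 2 against 276 to 282. Slc43a3 measured 870 in control mouse 2 against 728 to 748. Of the 7, 3 are values of control mouse 4, the library with the fewest reads (12016242).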

How the results depend on the processing

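Slc1a4, Slc1a5, Slc3a2 and Slc7a1 passed under all 16 alternatives. Leaving out each mouse in turn gave 4 to 5 higher and 0 to 6 lower members, of which 0 to 3 were at least 2-fold lower; 0 to 1 lower of the Atf4 list; 0 to 1 higher and 2 to 5 lower of the other transporters; 1 to 5 lower of the sensing genes; and 2 to 7 lower of the glutamine and asparagine enzymes. With total reads as the scale, 8 members were higher, 1 lower and 0 lower by 2-fold, 0 of the Atf4 list were lower, 3 of the other transporters were higher and 2 lower, 11 sensing genes were higher and 1 lower, and 4 of the enzymes were higher. With that scale the median of all genes was 0.28, against -0.01 with TMM. Members lower by 2-fold also numbered 0 without a filter, with apeglm and with the mouse series as covariate, and 3 in mice of the 800s, where 7 enzymes were lower. With the covariate, 0 other transporters were higher. Shares of all genes under each setting were not set beside these counts or those of the next paragraph.

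The deviations of same-numbered mice correlated at -0.127 to 0.096, and those of differently numbered mice at -0.13 to 0.113. These values gave no sign that replicate numbers pair the mice, but cannot exclude it. With the number as a block, 3 members were lower, 0 of the Atf4 list were lower, 0 other transporters were higher and 2 sensing genes were lower; Slc38a2 (adjusted p = 0.0606) and Slc38a4 (0.0538) no longer passed and Slc36a1 did (0.0316).

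Signs turned only where members had not passed. With total reads as the scale, Slc7a2 had 0.017, Slc7a8 0.12, Slc38a3 0.13, Slc38a6 0.20, Slc43a2 0.29 and Slc43a3 0.062 on the log2 scale. In mice of the 800s, Slc7a8 had 0.12, Slc38a7 -0.071 and Slc43a2 0.11, and without a filter Slc43a2 had 0.000155. With mice left out, values ran from -0.068 to 0.40 for Slc7a5, from -0.026 to 0.30 for Slc38a1, from -0.17 to 0.035 for Slc38a6 and from -0.13 to 0.094 for Slc43a2. The ratio of heavy to light chains kept log2 differences of 1.05 to 1.28. The cause of these shifts was not tested. With 4 mice per genotype and under 100 reads for Slc7a4, and 17 members below the filter, small changes in low genes were not detectable.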
